A study of Mus musculus with 7 samples.

Results

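The core circadian clock genes Arntl (also called Bmal1), Clock, Npas2, Per1, Per2, Per3, Cry1, Cry2, Nr1d1 and Nr1d2 were examined for chromatin accessibility in young and aged mouse liver. Of the 55680 accessible regions measured by ATAC-seq, 52 overlapped the body of one of these 10 genes or the 10 kb on either side of it, and all of them were kept. Of these, 12 lay at a promoter of the gene itself, defined as 200 bp on either side of an annotated transcription start site (TSS), and 40 lay elsewhere: 18 in introns, 6 over exons, 5 in the upstream flank, 6 in the downstream flank and 5 at the promoter of a neighboring gene. Npas2 had 10 regions, Per2 9, Arntl 8, Per1 6, Cry1, Cry2, Nr1d1 and Nr1d2 4 each, Clock 2 and Per3 1.

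The molecular clock is a feedback loop that runs in nearly every cell. The proteins of Arntl and of Clock or its relative Npas2 pair up and switch on genes with a sequence called the E-box, among them the Per, Cry and Nr1d genes. The Per and Cry proteins then block this pair, while the Nr1d proteins, also called REV-ERBs, repress Arntl, Npas2 and Cry1 through a second sequence, the ROR element. In liver the loop times metabolism to feeding, and the accessibility of many of its elements rises and falls over the day.

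ATAC-seq, in which a transposase cuts and tags open DNA, was applied to nuclei of whole liver from male C57BL/6N mice fed a standard diet without restriction, with no further treatment. There were 3 samples from young mice (3 months) and 4 from aged mice (18 months). The paper describes the aged samples as 4 biological replicates. According to the design text of the series, they trace back to 3 animals, 1 of which gave a pair of samples from different lobules. The labels do not say which samples these are, so the 4 were taken as separate samples, and p-values measure the spread between samples and may be too small. The time of day at which the livers were taken is not given in the sources used here. The samples held between 4474652 and 25461110 counts in regions, and the deepest was young 2 and the shallowest aged 3. In bulk liver, fewer cells of a type and less accessible chromatin per cell cannot be told apart.

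The promoters of all 7 hepatocyte marker genes looked for (such as Alb and Hnf4a) had an accessible region, with summed CPM (the count of a region relative to the total of its library) of 609 to 676 in young and 748 to 881 in aged samples. Of the promoters of other liver cells, those of the stellate cell markers with a region (3 of 5) summed to 29.4 to 34.6 CPM in young and 17.5 to 23.5 CPM in aged samples, whereas the ranges of the 2 ages overlapped for Kupffer cell (1 of 6 with a region), endothelial (4 of 6) and cholangiocyte markers (2 of 4). No promoter of the 6 lymphocyte markers had a region. The part of these differences in the results at the clock genes was not tested.

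Of the 52 regions, 5 differed with age at an adjusted p under 0.05, and 200 bases of each are shown first, since these regions carry the changes described below. Capitals mark the clock elements found on either strand, namely E-boxes (CACGTG) and ROR elements (TAGGTCA), and each sequence is written on the strand of its gene (GRCm38). Each stretch was placed on an E-box or ROR element of its region, so that a marked element in every stretch follows from this choice.
Npas2 intron, chr1:39288487-39288686: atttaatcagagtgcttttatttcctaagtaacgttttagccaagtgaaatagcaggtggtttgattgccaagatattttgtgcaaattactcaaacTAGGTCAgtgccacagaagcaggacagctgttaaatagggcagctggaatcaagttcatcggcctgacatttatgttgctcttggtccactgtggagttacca
Per2 intron, chr1:91457145-91457344: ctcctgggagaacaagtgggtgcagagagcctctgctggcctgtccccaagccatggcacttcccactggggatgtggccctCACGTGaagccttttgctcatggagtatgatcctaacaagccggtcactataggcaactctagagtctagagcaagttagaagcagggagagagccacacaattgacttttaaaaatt
Cry1 intron, chr10:85161816-85162015: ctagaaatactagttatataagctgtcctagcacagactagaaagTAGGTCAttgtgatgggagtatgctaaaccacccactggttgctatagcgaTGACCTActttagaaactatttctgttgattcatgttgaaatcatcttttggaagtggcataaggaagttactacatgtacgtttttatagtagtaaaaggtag
Nr1d1 downstream flank, chr11:98766346-98766545: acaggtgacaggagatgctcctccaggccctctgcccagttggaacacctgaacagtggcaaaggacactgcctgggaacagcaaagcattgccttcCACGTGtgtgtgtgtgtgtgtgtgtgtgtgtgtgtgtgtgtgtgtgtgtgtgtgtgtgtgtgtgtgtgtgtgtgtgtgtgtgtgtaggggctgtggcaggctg
Nr1d2 downstream flank, chr14:18201468-18201667: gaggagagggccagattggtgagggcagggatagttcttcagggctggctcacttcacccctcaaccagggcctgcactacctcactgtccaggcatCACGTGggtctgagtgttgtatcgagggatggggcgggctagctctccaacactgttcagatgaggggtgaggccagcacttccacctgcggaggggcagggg
A ROR element was also found in the promoter regions of Arntl, Npas2 and Nr1d1, and 30 bases around it are shown for the first 2 because these promoters had the highest log2 fold changes among the 10 genes.
Arntl promoter, chr7:113207529-113207558: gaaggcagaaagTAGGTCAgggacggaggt
Npas2 promoter, chr1:39192827-39192856: tggaaaaatatgTAGGTCAgtggaacattt

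Across all regions, 3198 of 55680 (5.74%) passed an adjusted p under 0.05 in edgeR's quasi-likelihood test, 1360 with higher and 1838 with lower accessibility in aged liver. This split moved with the normalization and the test: 1950 of 3704 calls were increases with DESeq2 size factors, 2760 of 4691 with DESeq2's own test, 3497 of 5540 after a correction for GC content, 543 of 3474 with total counts, which shifted the median of all regions from -0.035 to -0.15, and 270 of 828 after a correction for mean abundance. The paper used DESeq2 and reported the same 2760 of 4691. Most calls were thus increases in the paper's test and decreases in edgeR's. The change with age also went with the strength of a region. Among the 10% of regions with the highest mean accessibility, the log2 fold change (aged over young) had a median of 0.28 at promoters and was above 0 at 95.1% of them, whereas among the lowest 10% the median was -0.53 and 13.1% were above 0. Of the 10 clock promoters, 9 belonged to the highest 10% and that of Npas2 to the next 10%, so each value below stands beside a background that was itself mostly above 0.

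**Figure D1:**
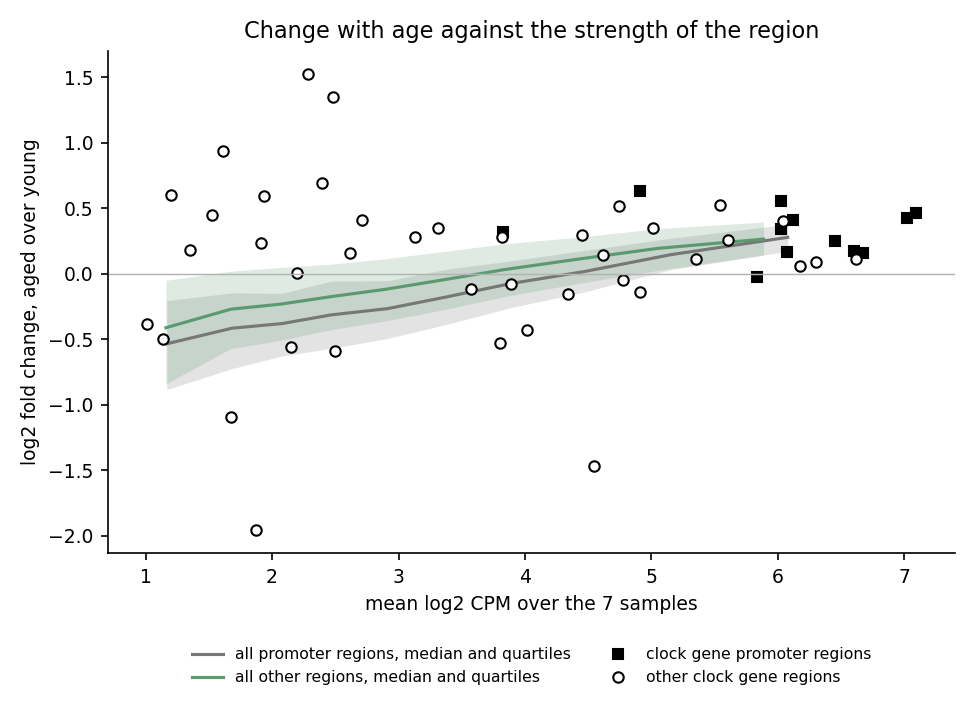
Log2 fold change of aged over young liver (vertical axis) against mean log2 CPM over the 7 samples (horizontal axis) for the 12 promoter regions (squares) and the 40 other regions (circles) at clock genes, with lines and bands for the median and quartiles of all promoter regions and all other regions in steps of 10% of the regions by accessibility. The medians of all promoter regions go from -0.53 in the lowest to 0.28 in the highest step and most clock promoters lie near the upper end of that line, while the intronic regions of Npas2 (1.53) and Cry1 (1.35) lie far above the bands and the downstream regions of Nr1d1 (-1.46) and Nr1d2 (-1.96) far below them.

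At the promoters, 11 of the 12 regions had higher mean accessibility in aged liver and none passed the threshold, against 4.48% of all 15422 promoter regions that increased and 2.06% that decreased. Of the 10 promoter regions named here, 1 for each gene (the region with the highest mean log2 CPM), 6 had an unadjusted p under 0.05 in edgeR with a higher value in aged liver, beside 23.0% of all promoter regions and 54.8% of those among the 10% of regions with the highest accessibility. DESeq2's own test called 1 of them (Nr1d1) and limma 0. The median log2 fold change of the 12 was 0.33, beside 0.094 for all promoter regions and 0.28 for those of the highest 10%; after correction for mean abundance it was 0.075, and 5 of the 10 promoters named here, those of Clock, Per1, Per2, Per3 and Cry2, had values below 0. With that correction the values were 0.068 at Nr1d1, 0.083 at Cry1, 0.11 at Nr1d2, 0.29 at Arntl and 0.48 at Npas2. All aged samples lay above all young samples at 4 of the 10 promoters, namely Per2, Cry1, Cry2 and Nr1d1, and at none did all lie below; over all promoter regions the shares were 20.4% and 8.88%, and among promoters of the highest 10% it was 46.9% above.

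The positive limb comprises Arntl, Clock and Npas2, whose proteins form the activating pairs. At the Arntl promoter (chr7:113206601-113208508), accessibility was 60.0, 60.3 and 39.5 CPM in young 1 to 3 and 83.5, 52.8, 74.9 and 104 CPM in aged 1 to 4. Aged 1, 3 and 4 lay above every young sample and aged 2 lay within the young range. Mean accessibility was 53.2 ± 11.9 CPM (SD, n = 3) at the young age against 78.8 ± 21.2 CPM (SD, n = 4) at the aged one, and the log2 fold change of 0.56 ± 0.20 (SE) missed the threshold (adjusted p = 0.099). A second Arntl promoter region, 32.5 kb into the gene at an internal TSS, was weaker, at 11.8 to 13.5 CPM in young and 12.4 to 17.9 CPM in aged samples.

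At the Npas2 promoter (chr1:39192367-39194476), accessibility was 24.3, 24.1 and 26.3 CPM in young 1 to 3 and 47.6, 15.1, 34.8 and 53.7 CPM in aged 1 to 4. The young samples were close together, 3 aged samples were above all of them and aged 2 was below all of them. This promoter had the largest log2 fold change of the 10, 0.63 ± 0.28 (SE), with an adjusted p of 0.19. Without aged 2 the value was 0.88 (adjusted p = 0.019) at Npas2 and 0.71 (adjusted p = 0.036) at Arntl, and these were the only 2 of the 10 promoters past the threshold in that fit.

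Clock, the partner of the Arntl protein, had a promoter region (chr5:76303624-76306210) with 62.8, 63.9 and 63.8 CPM in young 1 to 3 and 78.1, 52.4, 77.0 and 76.7 CPM in aged 1 to 4. Aged 1, 3 and 4 were close together above the young samples, and aged 2 was below them. The log2 fold change was 0.17 ± 0.14 (SE, adjusted p = 0.48), and 0.28 (adjusted p = 0.12) without aged 2. The other Clock region, an intron 15.2 kb into the gene, held 4.60 to 7.13 CPM in young and 4.58 to 8.24 CPM in aged samples, with overlapping groups.

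**Figure D2:**
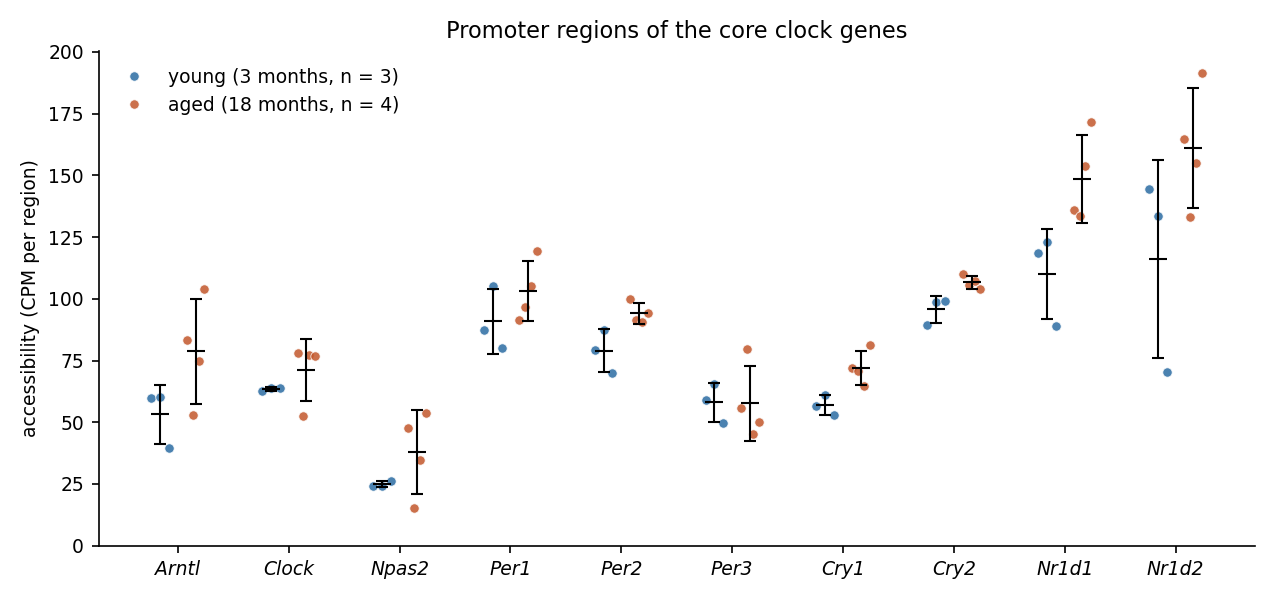
Accessibility in CPM per region (vertical axis, from 0) of the promoter region of each of the 10 clock genes (horizontal axis) in every young (blue, samples 1 to 3 from left to right) and aged sample (orange, samples 1 to 4), with bars for the mean and SD. The groups are apart at Per2, Cry1, Cry2 and Nr1d1, and at Arntl, Clock and Npas2 a single aged sample, aged 2, lies at 52.8, 52.4 and 15.1 CPM while the other aged samples lie above the young ones.

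The negative limb comprises the Per and Cry genes, whose proteins inhibit the activating pair. At the Per2 promoter (chr1:91457611-91459805), accessibility was 79.4, 87.6 and 70.0 CPM in young 1 to 3 and between 90.6 and 99.98 CPM in the 4 aged samples. The groups did not overlap, and the log2 fold change was 0.25 ± 0.11 (SE, adjusted p = 0.18). At the Per1 promoter region with the higher mean (chr11:69096529-69100076), the values were 87.2, 105 and 79.9 CPM in young and 91.4, 96.7, 105 and 119 CPM in aged samples, which overlapped (log2 fold change 0.18 ± 0.13, SE, adjusted p = 0.42). This value was 0.10 without aged 4, 0.11 without young 3 and 0.30 without young 2. The other Per1 promoter region, at the first TSS, had 48.8 to 67.4 CPM in young and 63.3 to 94.9 CPM in aged samples and a log2 fold change of 0.41 ± 0.15 (SE, adjusted p = 0.10).

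Per3 stood apart from the other 9 promoters in that its means were nearly equal. Its promoter (chr4:151043381-151045429), the only region at this gene, had 59.1, 65.5 and 49.8 CPM in young 1 to 3 and 56.0, 79.6, 45.1 and 50.02 CPM in aged 1 to 4. Aged 2 was the highest of all 7 samples here, and the log2 fold change was -0.021 ± 0.17 (SE, adjusted p = 0.96). It was also the only 1 of the 52 regions with a near-identical copy in the assembly searched. That search covered all sequences of the assembly and not only the chromosomes. Whether the copy is a second place in the genome, and whether it affects the count, was not tested. The 250 bases before the RefSeq start of Per3 are shown because they hold 2 exact D-boxes (TTATGTAA, in capitals), the element read by the clock output factors DBP, TEF and HLF and by their opponent NFIL3. Among RefSeq promoter windows of 300 bases, 0.938% held a D-box.
Per3 promoter, chr4:151044666-151044915: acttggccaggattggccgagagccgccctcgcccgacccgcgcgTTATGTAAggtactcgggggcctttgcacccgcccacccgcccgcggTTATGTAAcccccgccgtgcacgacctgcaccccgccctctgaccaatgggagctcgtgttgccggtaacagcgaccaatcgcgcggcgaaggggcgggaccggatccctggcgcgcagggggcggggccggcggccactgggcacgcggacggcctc

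The cryptochromes are the most potent repressors of the loop. At the Cry1 promoter (chr10:85183771-85185753), accessibility was 56.6, 61.0 and 53.1 CPM in young 1 to 3 and 71.9, 70.8, 64.7 and 81.3 CPM in aged 1 to 4. All aged samples were above all young samples, with a log2 fold change of 0.34 ± 0.11 (SE, adjusted p = 0.083). At the Cry2 promoter (chr2:92431099-92434577), young samples had 89.3, 98.7 and 99.1 CPM and aged samples 110, 106, 107 and 104 CPM. The groups were again apart, by a small margin, and the log2 fold change was 0.16 ± 0.10 (SE, adjusted p = 0.36).

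Nr1d1 and Nr1d2 encode REV-ERB alpha and beta, nuclear receptors that bind heme and repress transcription. At the Nr1d1 promoter (chr11:98772896-98776018), accessibility was 118, 123 and 89.1 CPM in young 1 to 3 and 136, 133, 154 and 172 CPM in aged 1 to 4. The means were 110 ± 18.3 CPM (SD, n = 3) and 149 ± 17.8 CPM (SD, n = 4), all aged samples were above all young samples, and the log2 fold change was 0.43 ± 0.14 (SE, adjusted p = 0.075). This region held 5 E-boxes. At the Nr1d2 promoter (chr14:18238147-18239696), which held 3 E-boxes, young 1 to 3 had 145, 133 and 70.2 CPM and aged 1 to 4 had 165, 133, 155 and 192 CPM. Young 3 was far below the other 6 samples, and the log2 fold change of 0.47 ± 0.20 (SE) had an adjusted p of 0.17. Without young 3 it was 0.23 (adjusted p = 0.35).

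Young 3 was the lowest young sample at most of these promoters, with deviations from the mean over all samples of -0.72 (log2) at Arntl, -0.96 at Nr1d2, -0.54 at Nr1d1 and -0.31 at Per2. Over all 52 regions it was the lowest young sample in 25 (48.1%) and over all regions of the series in 39.4%. Without young 3, the median log2 fold change of the 12 promoter regions was 0.27.

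Compared per kb of region, the Nr1d2 promoter was the most accessible of the 10 at 91.5 ± 24.2 CPM per kb (SD over 7 samples). Nr1d1 followed at 42.3 ± 8.44 CPM per kb, Per2 at 39.9 ± 4.55 and Arntl at 35.6 ± 11.2. Cry1, Cry2, Per3, Per1 and Clock ranged from 33.1 down to 26.2 CPM per kb, and Npas2 was the lowest at 15.3 ± 6.59. The ranges over the samples overlapped between every promoter and the next in this order. The order was not the same at each age: in young liver Per2 (36.0 CPM per kb) was above Nr1d1 (35.3), and Arntl (27.9) was below Cry1 (28.7) and Per3 (28.4). It also depended on the choice of promoter region, since the region at the first TSS of Per1 had 40.6 ± 6.48 CPM per kb in young (SD, n = 3) and 54.2 ± 8.85 in aged liver (SD, n = 4), above Nr1d1 at both ages.

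Outside the promoters, 3 of 40 regions increased and 2 decreased, and all 5 were among the 35 that lay at no promoter. Over all 40258 regions at no promoter, 1.66% increased and 3.78% decreased. The 3 increases lay in introns of Npas2, Per2 and Cry1, and the 2 decreases lay downstream of Nr1d1 and Nr1d2. The median log2 fold change was 0.15 for the 40 and 0.19 for the 35, beside -0.091 for all regions at no promoter. The genes differed in this: the 9 Npas2 regions outside its own promoter were all above 0, with a median of 0.60. The medians of the other genes with such regions ranged from -1.09 at Nr1d2 (n = 3) to 0.52 at Cry1 (n = 3). Since the change went with strength, the 35 were also split at the median accessibility of all regions: the 18 stronger ones had a median of 0.11, beside 0.081 for all stronger regions at no promoter, and the 17 weaker ones had a median of 0.23, beside -0.23 for all weaker ones. Many of the 17 were Npas2 regions, all of them above 0, and the median of the weaker regions without Npas2 was not computed. The number of increased regions changed when a sample was left out: it was 0 without aged 1, without young 1 or without young 2, 1 without aged 3 or without young 3, and 5 without aged 2. The number of calls over all regions went from 188 to 4230. In the fits with 0 increased regions it was 402 without aged 1, 188 without young 1 and 446 without young 2, against 3198 with all samples. Without aged 1 the log2 fold changes were still 1.42 (Npas2), 1.15 (Cry1) and 0.47 (Per2). The number of decreased regions was 1 without aged 1, young 1 or young 2 and 3 without aged 2.

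**Figure D3:**
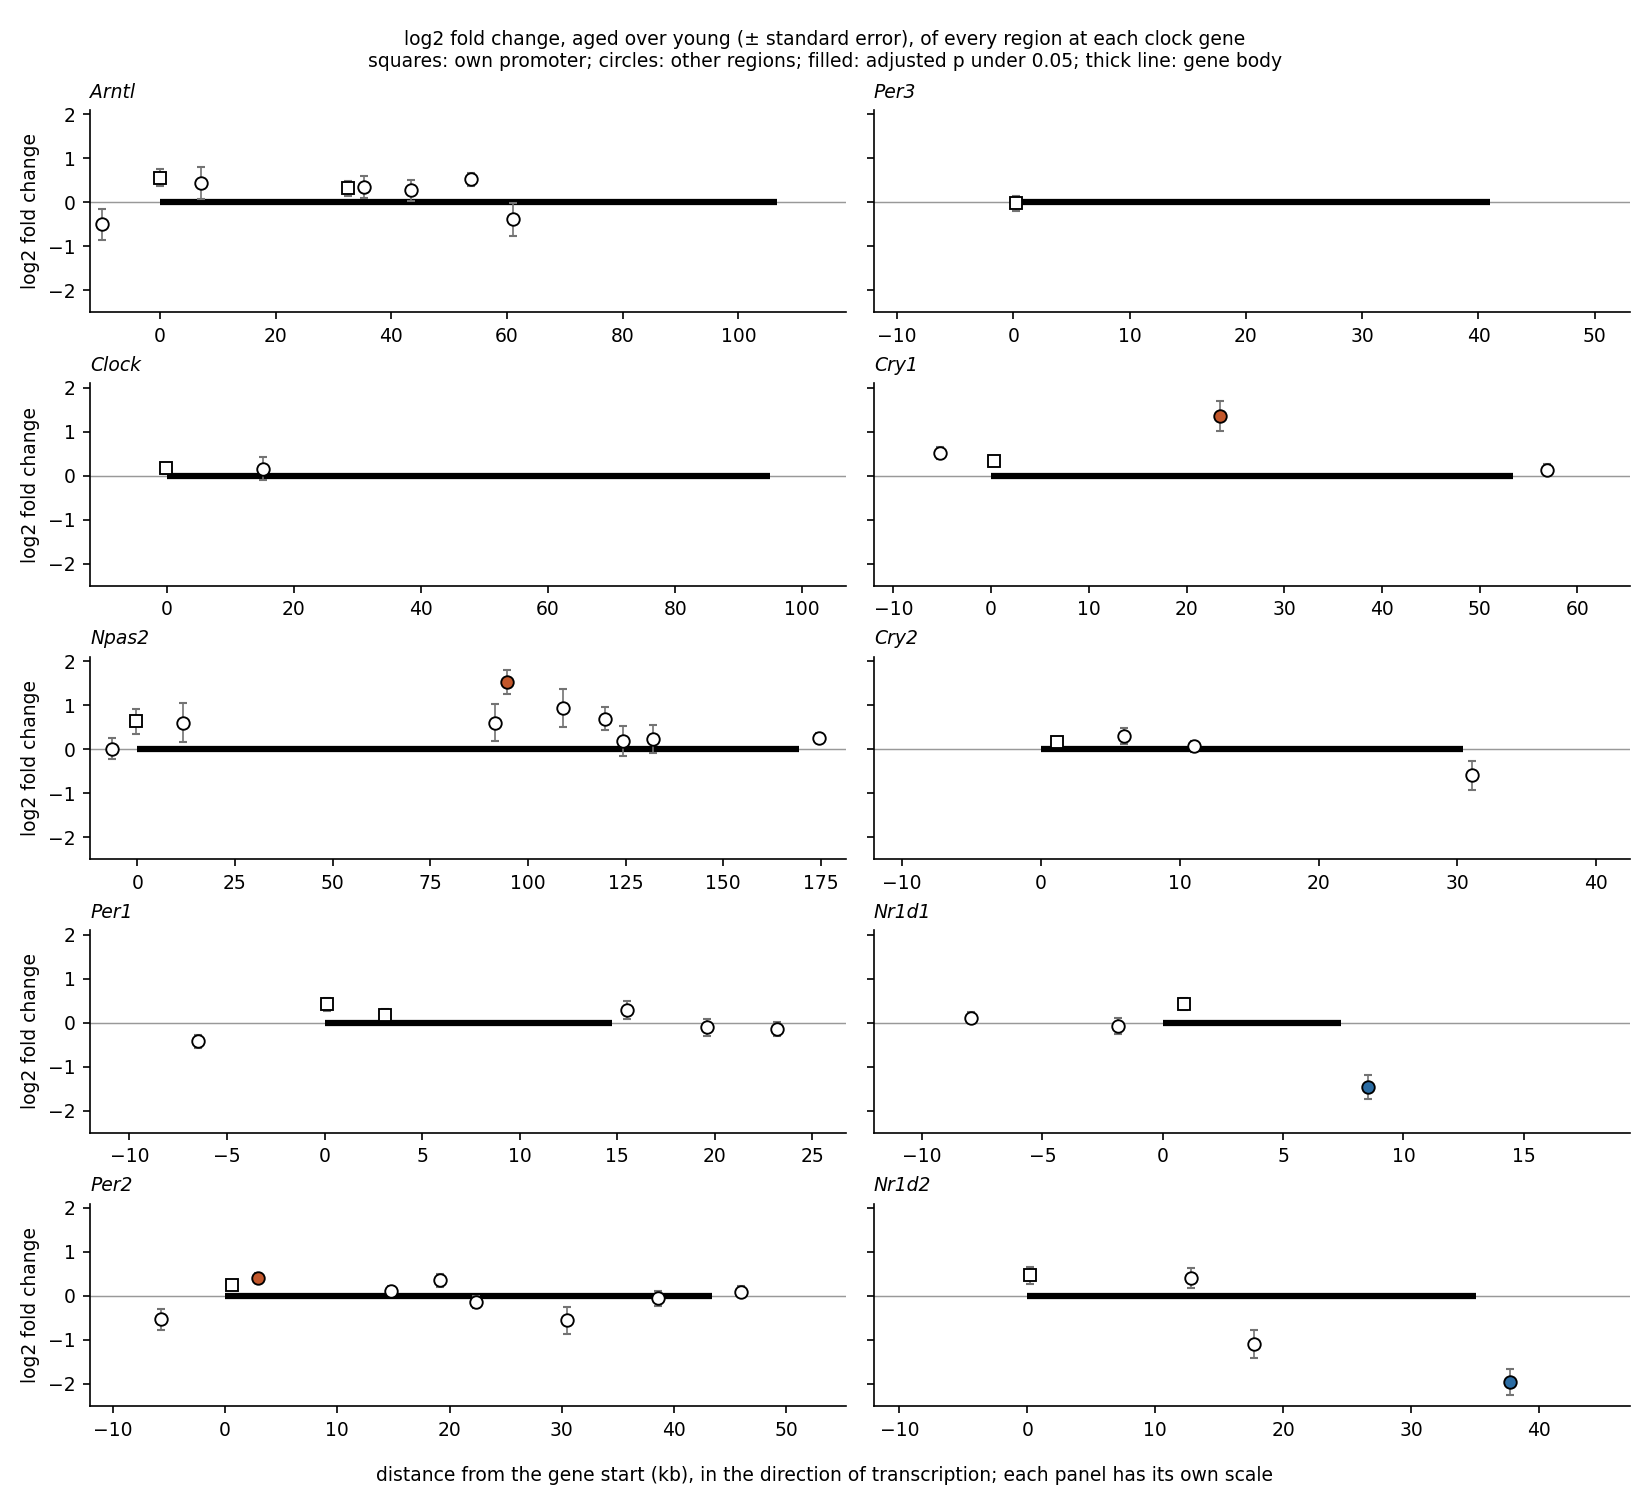
Log2 fold change of aged over young liver (vertical axis, ± SE) of each region against the distance of its middle from the gene start in kb, in the direction of transcription (horizontal axis), in 1 panel for each of the 10 clock genes. Filled symbols have an adjusted p under 0.05: 3 intronic regions in Npas2, Per2 and Cry1 lie above 0 and 2 regions downstream of Nr1d1 and Nr1d2 lie below it, and all 10 regions of Npas2 lie above 0.

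The largest increase was in an intron of Npas2 (chr1:39288216-39288758), 94.8 kb into the gene. Accessibility was 2.31, 2.57 and 2.96 CPM in young 1 to 3 and 8.87, 4.71, 7.47 and 8.40 CPM in aged 1 to 4, from 18 to 68 counts in young and 24 to 101 in aged samples. All aged samples were above all young ones, and aged 2 was the nearest to them. The log2 fold change was 1.53 ± 0.28 (SE, adjusted p = 0.012). The region held a ROR element, as did 6.80% of the 4601 regions at no promoter within 10% of its length. Without aged 1, young 1 or young 2 the adjusted p was up to 0.064, and in the other fits the region passed.

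All 10 Npas2 regions had higher fitted accessibility in aged liver (median log2 fold change 0.60), as did 46.6% of all regions. The intron 119.8 kb into the gene (chr1:39313329-39313793) had 3.15 to 4.60 CPM in young and 5.10 to 8.17 CPM in aged samples, which did not overlap (log2 fold change 0.69 ± 0.26, SE, adjusted p = 0.12). Aged 2 was the lowest aged sample in 9 of the 10 Npas2 regions and aged 1 the highest in 7, whereas over all regions aged 2 was the lowest in 27.4% and aged 1 the highest in 21.8%. In the intron 91.6 kb into the gene, aged 2 had 1.18 CPM and aged 1 had 7.73 CPM, with young samples at 2.87 to 4.44 CPM. The strongest region of the Npas2 locus outside its own promoter was the promoter of the downstream gene Rpl31 (a ribosomal protein), at 39.6 to 47.3 CPM in young and 48.4 to 57.8 CPM in aged samples (log2 fold change 0.26 ± 0.11, SE, adjusted p = 0.18).

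In Cry1, an intronic region (chr10:85161162-85162201) 23.4 kb into the gene had 2.96, 3.67 and 3.45 CPM in young 1 to 3 and 11.4, 3.14, 9.81 and 9.55 CPM in aged 1 to 4. Aged 1, 3 and 4 were at least 9.55 CPM, and aged 2 lay within the young range. The log2 fold change was 1.35 ± 0.34 (SE, adjusted p = 0.037). The region held 2 ROR elements on opposite strands (shown above), and 12.7% of the 4718 regions of like length held at least 1. The adjusted p was above 0.05 without aged 1, without aged 3 and without each young sample (up to 0.12), with aged 1 and 3 summed (0.089) or aged 3 and 4 summed (0.056) and with the replicate number as a block (0.059). It was 0.014 without aged 2, with a log2 fold change of 1.60. Upstream of Cry1, at -5.24 kb from the gene start, a stronger region (chr10:85189793-85190816) had 22.9, 24.1 and 18.3 CPM in young and 32.3, 26.5, 30.8 and 35.5 CPM in aged samples. The groups were apart and the log2 fold change of 0.52 ± 0.15 (SE) just missed the threshold (adjusted p = 0.052).

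In Per2, the region that increased (chr1:91455513-91457344) lay in an intron 2.9 kb from the gene start, next to the promoter region. It had 58.4, 54.0 and 54.9 CPM in young 1 to 3 and 64.0, 75.7, 78.2 and 78.5 CPM in aged 1 to 4. All aged samples were above all young ones, and the log2 fold change was 0.41 ± 0.11 (SE, adjusted p = 0.048). This call was the least stable of the 5: the adjusted p was above 0.05 without any 1 of the 7 samples (0.064 to 0.16), in 5 of the 6 fits that summed 2 aged samples (up to 0.088) and with total counts (0.11), and the log2 fold change was 0.15 (adjusted p = 0.52) after correction for mean abundance. The region held an E-box, as did 23.7% of the regions of like length. The strongest Per2 region outside the promoter, over exons 14.7 kb into the gene, had 85.8 to 106 CPM in young and 95.3 to 116 CPM in aged samples (log2 fold change 0.12 ± 0.12, SE, adjusted p = 0.58). Leaving out 1 sample gave 0.049 to 0.22 at these exons.

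Downstream of Nr1d1, 1.1 kb past the gene end, a region (chr11:98766091-98767558) fell from 48.2, 50.7 and 29.1 CPM in young 1 to 3 to 12.2, 22.8, 21.9 and 8.02 CPM in aged 1 to 4. The groups did not overlap, although aged 2 and 3 came near young 3. The means were 42.7 ± 11.8 CPM (SD, n = 3) and 16.2 ± 7.27 CPM (SD, n = 4), and the log2 fold change was -1.46 ± 0.28 (SE, adjusted p = 0.015). The region also lay in an intron of Thra, the thyroid hormone receptor gene that runs toward Nr1d1 on the other strand, so that it cannot be assigned to either gene from these data. Its E-box directly abuts a long run of GT repeats, and 21.6% of the regions of like length held an E-box. The adjusted p was up to 0.064 without aged 1, young 1 or young 2.

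The largest decrease was downstream of Nr1d2, 2.6 kb past the gene end (chr14:18201013-18201814). Accessibility was 7.87, 9.79 and 4.77 CPM in young 1 to 3 and 1.93, 2.55, 1.87 and 1.65 CPM in aged 1 to 4, and the counts were 29 to 259 in young but only 8 to 22 in aged samples. All aged samples were below all young ones, and the log2 fold change was -1.96 ± 0.30 (SE, adjusted p = 0.0077). This was the only 1 of the 5 regions that passed in all 22 alternative fits. It held an E-box, as did 13.3% of the regions of like length.

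Within Nr1d2, the intron 17.7 kb into the gene (chr14:18221178-18221689) also had lower values, at 4.91, 4.88 and 4.28 CPM in young 1 to 3 and 2.02, 3.73, 1.63 and 1.65 CPM in aged 1 to 4, from as few as 7 counts. The groups were apart and the log2 fold change of -1.09 ± 0.31 (SE) missed the threshold (adjusted p = 0.054). The intron 12.8 kb into the gene had the opposite sign, at 4.60 to 6.02 CPM in young and 6.07 to 8.08 CPM in aged samples (log2 fold change 0.41 ± 0.22, SE, adjusted p = 0.27). At both Nr1d genes the promoter had a value above 0 and the downstream region fell, and the difference between regions was not tested.

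**Figure D4:**
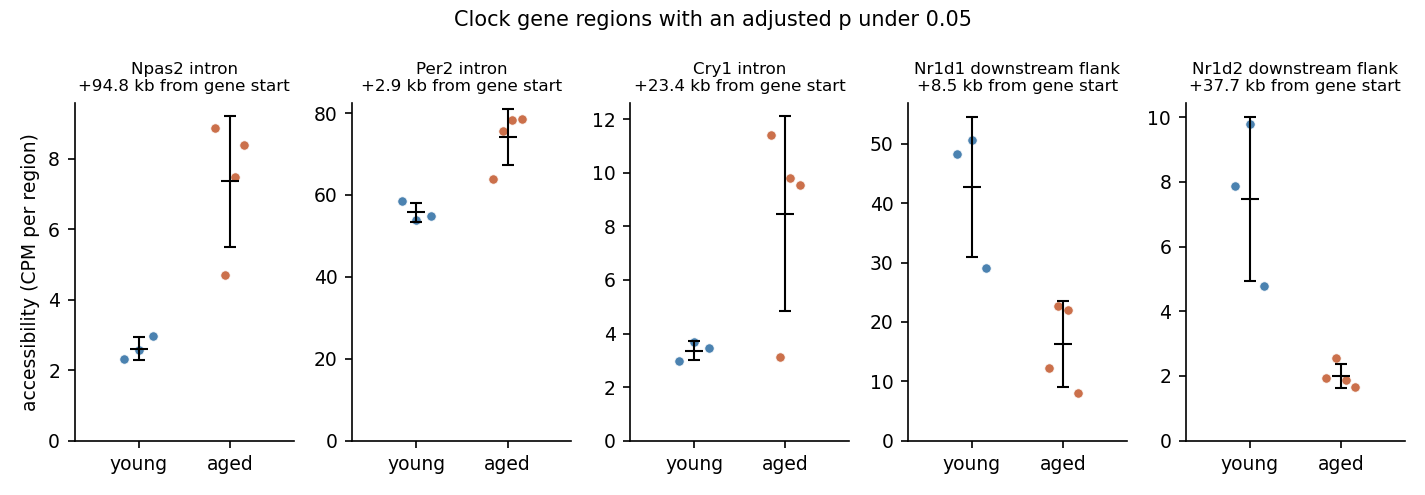
Accessibility in CPM per region (vertical axes, from 0, each panel with its own scale) of the 5 clock gene regions with an adjusted p under 0.05 in every young (blue, samples 1 to 3 from left to right) and aged sample (orange, samples 1 to 4), with bars for the mean and SD. The groups are apart in all panels but Cry1, where aged 2 at 3.14 CPM lies among the young samples.

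All aged samples lay above all young ones in 6 of the 35 regions at no promoter and below them in 3, beside 6.26% and 12.7% of all such regions. Among regions over the median accessibility they lay above in 3 of 18, beside 2000 of 15531 such regions, and below in 1, beside 930. Among the most accessible 10% of regions, which hold the Arntl and Per2 introns, they lay above in 367 of 1041. Among the weaker regions they lay above in 3 of 17, beside 519 of 24727, and below in 2 of 17, beside 4164 of 24727. Of the 5 promoters of neighboring genes, 1 lay above (Rpl31) and 1 below (Vamp2). In Arntl this held for the strongest intronic region (chr7:113260333-113262101), at 34.3, 46.2 and 32.7 CPM in young and 53.8, 68.4, 47.6 and 50.02 CPM in aged samples (log2 fold change 0.53 ± 0.15, SE, adjusted p = 0.058). It passed in 5 of 22 alternative fits, among them that without aged 4 (0.041). Here aged 2 was the highest of all samples, unlike at the Arntl promoter. Upstream of Per1, the region at the promoter of Vamp2, which encodes a vesicle fusion protein, was lower in every aged sample, at 18.4 to 19.8 CPM in young and 13.4 to 15.7 CPM in aged liver (log2 fold change -0.43 ± 0.15, SE, adjusted p = 0.099). The strongest regions of the other genes outside their promoters had small differences: 0.11 ± 0.13 (SE, adjusted p = 0.64) at -7.98 kb from the start of Nr1d1, 0.062 ± 0.12 (adjusted p = 0.80) over exons of Cry2 and -0.15 ± 0.16 (adjusted p = 0.61) downstream of Per1. Leaving out 1 sample gave 0.023 to 0.20 at the Nr1d1 region.

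**Figure D5:**
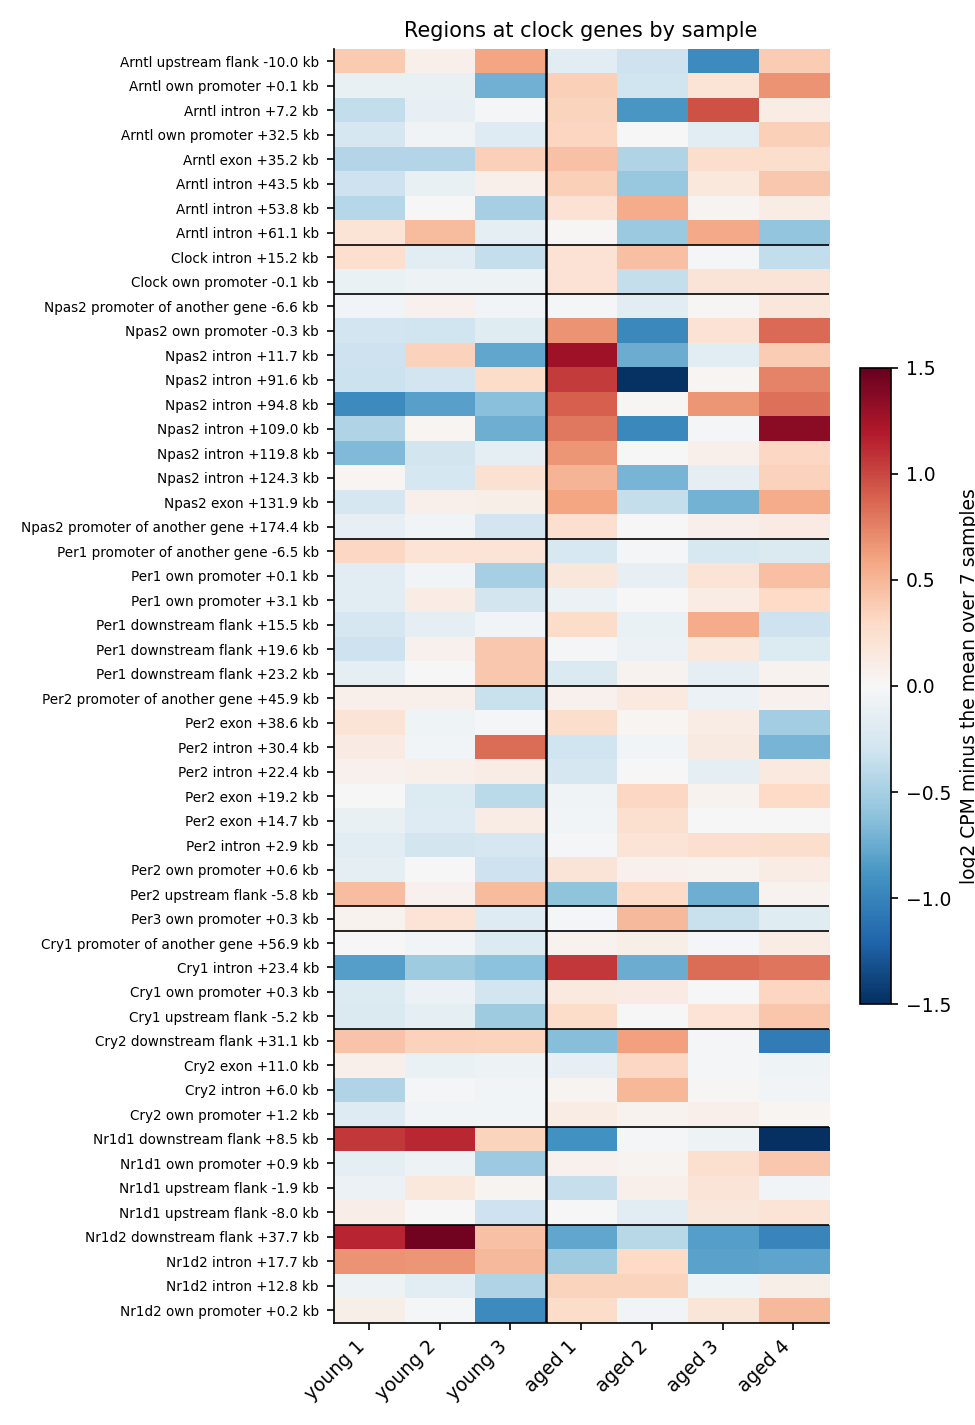
Log2 CPM of each of the 52 regions (rows, grouped by gene, with the distance of the region's middle from the gene start) in each sample (columns), as the deviation from the mean over the 7 samples, in red where higher and blue where lower. Aged 2 is the lowest aged sample in 9 of the 10 Npas2 rows, and the Nr1d1 and Nr1d2 downstream rows are red in young and mostly blue in aged samples.

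The clock elements were counted in all 52 regions. An E-box (CACGTG) was in 14 of them, an E-box variant (CACGTT) in 12, a ROR element (TAGGTCA) in 10, a D-box (TTATGTAA) in 6 and a cAMP response element (TGACGTCA) in 2, each on either strand. Over all 55680 regions, which were not matched for length, the shares were 17.3%, 15.0%, 10.3%, 3.78% and 1.89%, and among the 52 they were 26.9%, 23.1%, 19.2%, 11.5% and 3.85%. Windows of equal length, the middle 300 bases, were compared for the 35 regions at no promoter. There an E-box was in 1 of 35 (5.36% of all such regions), the variant in 0 (4.33%) and a ROR element in 3 (3.98%). A D-box was in 0 (1.47%) and a cAMP response element in 1 (0.323%). The median log2 fold change was 0.35 for the 10 regions with a ROR element, of which 9 were above 0, and 0.18 for the 14 with an E-box, of which 12 were above 0, and all 12 with the variant E-box were above 0 (median 0.21). Over the 52 regions the median was 0.21 and 71.2% were above 0, so that the regions with an E-box lay near the whole set. Over all regions of the series with the same letters the medians were 0.043 for the ROR element (n = 5732, 54.7% above 0) and 0.013 for the E-box (n = 9627, 51.1% above 0). For the variant E-box the median was 0.044 (n = 8343, 55.3% above 0). Aged 2 was the lowest aged sample in 7 of the 10 regions with a ROR element and in 30.3% of all 5732, and 3 of the 10 belong to Npas2. Of the 2 regions that decreased, both held an E-box, and of the 3 that increased, 2 held ROR elements and 1 an E-box. In the RefSeq windows of 300 bases around an annotated start, an E-box was found for Cry1 and Per1, a variant E-box for Cry1, Cry2 and Nr1d1, and a ROR element for Arntl. The Per1 window with the E-box (chr11:69098699-69098998) lies at a start inside the gene, which begins at 69095217. Over all 32851 such windows 7.15% held an E-box, 4.69% the variant and 2.61% a ROR element.

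Other genes of the clock were followed by their promoters, taking 29 genes of its secondary loops, outputs and protein turnover, all of which had a promoter region. Of these promoters, 18 were among the 10% of regions with the highest accessibility. Accessibility increased at 3, beside 4.48% of all promoter regions and 11.2% of those among that 10%, and decreased at 0 (edgeR, with 12 higher and 0 lower at an unadjusted p under 0.05, beside 23.0% and 54.8% higher), while DESeq2's own test gave 4 increases and 0 decreases and limma 4 and 0. The mean was higher in aged liver for 23 and lower for 6, with a median log2 fold change of 0.18, and all aged samples were above all young ones at 11 of the 29, beside 20.4% of all promoter regions and 46.9% of the most accessible ones. Those described here are Nfil3, the repressor at D-boxes, and Btrc, which marks the Per proteins for destruction.

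At the Nfil3 promoter, accessibility was 70.8, 76.7 and 70.5 CPM in young 1 to 3 and 104, 85.9, 112 and 111 CPM in aged 1 to 4, and the log2 fold change was 0.51 ± 0.12 (SE, adjusted p = 0.027). At the Btrc promoter it was 65.9, 65.2 and 58.7 CPM in young and 89.4, 76.1, 81.9 and 86.3 CPM in aged samples (0.40 ± 0.11, adjusted p = 0.045). At both the groups were apart and aged 2 was the lowest aged sample. After correction for mean abundance the values were 0.20 and 0.12 and neither passed. In all, the call was lost in 7 of 22 alternative fits for Nfil3, with an adjusted p of up to 0.099 when 1 sample was left out, and in 14 of 22 for Btrc, up to 0.13.

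Gsk3b, a kinase that acts on several clock proteins, had a log2 fold change of 0.51 ± 0.18 (SE), but its groups overlapped and the adjusted p was 0.10. Its value was 0.32 without young 3 and 0.13 after correction for mean abundance. The lowest values were at the promoters of Rorb (-0.42 ± 0.29, adjusted p = 0.40), Dbp (-0.38 ± 0.20, adjusted p = 0.25) and Hdac3, a corepressor of the REV-ERBs (-0.21 ± 0.14, adjusted p = 0.38). Single samples moved these values: Rorb was at -0.28 without aged 1, -0.69 without aged 4 and -0.21 without young 2, Dbp at -0.24 without aged 1 and Hdac3 at -0.13 without aged 2. Dbp, a classical output of the clock with strong daily rhythm, had 108, 108 and 74.98 CPM in young 1 to 3 and 53.9, 109, 70.3 and 67.8 CPM in aged 1 to 4. Aged 2 was at the level of young 1 and 2 and the other aged samples were below all young ones, and without aged 2 the log2 fold change was -0.61 (adjusted p = 0.043).

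The promoters of other protein-coding genes whose log2 CPM over the 7 samples was most like that of a clock promoter were ranked by Pearson's r, as a description over samples that share their depth. Each clock promoter was compared with 13709 or 13710 promoter regions over only 7 samples, so the high r values are partly a product of the ranking. For Npas2 they were Pam16 (r = 0.976), Pelo (0.972) and Pbx3 (0.967), for Arntl they were Bmp2k (0.996), Sypl (0.996) and the shared promoter of Nup98 and Pgap2 (0.991), and for Nr1d1 they were Narf (0.995), Pcmt1 (0.993) and Trf (0.993).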

How the data were processed

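ATAC-seq of 7 liver samples was analysed from the table of raw counts that the authors deposited, with 1 column per sample and 0 columns left over. According to the paper and the submitters' processing notes, the authors trimmed reads with cutadapt 1.13, aligned them to GRCm38 with Bowtie2 2.4.1, removed duplicates, called peaks with MACS2 2.2.7 in each sample and counted reads with featureCounts in a consensus set; the deposited counts carry no normalization and no molecular identifiers.

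The 10 genes and the lists were chosen with earlier results of these data known. Regions were assigned to genes with GENCODE M21. Age was tested over all 55680 regions with edgeR 4.0.16 in R 4.3.3 (TMM factors, quasi-likelihood test, no covariate beside age, Benjamini-Hochberg adjustment, threshold 0.05, no filter). CPM used TMM-scaled totals, and log2 CPM a prior count of 2. No samples were duplicates: counts of the 9 same-age pairs differed beyond sampling noise (chi-square over degrees of freedom from 2.38 to 6.06).

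Named are the promoter region of each gene with the highest mean log2 CPM, every other region past the threshold, the 5 largest rises and 5 largest falls with groups apart, the strongest region of each gene outside its promoter and, of 29 other clock genes, those past the threshold with the 3 largest rises and falls; 1 of these genes is not reported here. Alternatives were DESeq2 1.42.0, limma 3.58.1 (voom), DESeq2 size factors, total counts, loess offsets (span 0.3) on mean abundance or GC content, filterByExpr, a mean of at least 20 counts, a threshold of 0.01, leaving out each sample, adding up any 2 aged samples (6 ways), a replicate block, gene bodies without flanks and promoters of 1000 bp on either side. Motifs were counted on both strands, each on its own whether or not it overlapped another. Region sequences came from the GRCm38 genome, promoter windows (250 bases before and 50 after the start) from RefSeq on the same assembly, and copies (80% of the length at 95% identity) from minimap2 2.31. Figures were drawn with matplotlib 3.10.9.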

Additional observations from a re-analysis of the deposited data

Results flagged for a closer look

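In the 4 aged samples, 1 sample stood far from the other 3 at 4 of the 36 named regions, by its gap relative to the whole range (Dixon's test, which chance passes in about 1 of 20 groups), and in all 4 it was aged 2. At the Clock promoter aged 2 had 5.72 log2 CPM, the others 6.27 to 6.29 and the young samples 5.98 to 6.00. At the Cry1 intron 23.4 kb into the gene aged 2 had 1.74 log2 CPM, the others 3.28 to 3.54 and the young samples 1.66 to 1.95. At the Vamp2 promoter upstream of Per1 aged 2 had 3.99 log2 CPM, the others 3.77 to 3.80 and the young samples 4.22 to 4.32. Over the exons of Per2 aged 2 had 6.86 log2 CPM, the others 6.58 to 6.62 and the young samples 6.43 to 6.73.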

How the results depend on the processing

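The depth of 4474652 to 25461110 counts limits the weak regions most, where an aged sample held as few as 4 counts. The number of increased clock gene regions (3) became 6 with DESeq2's test, 5 with DESeq2 size factors, 7 with the GC correction, 1 with aged 1 and 3 or aged 3 and 4 summed, 6 with aged 2 and 4 summed, and 0 at a threshold of 0.01. The number of decreased regions (2) became 1 at that threshold and 0 in gene bodies alone, since both lie in flanks. Of the 10 promoters, 1 passed with DESeq2's test, the GC correction or aged 1 and 2 summed and 2 with aged 2 and 4 summed. The median log2 fold change of the promoter regions was 0.075 with the abundance correction, and that of the other regions 0.23 with the GC correction, 0.099 with the abundance correction and 0.037 with total counts. Of the other clock genes, 8 increased with the GC correction, 1 with total counts, with aged 1 and 2, aged 1 and 4 or aged 2 and 3 summed, and 0 with the abundance correction, with aged 1 and 3 or aged 3 and 4 summed, and at 0.01. Leaving out 1 sample gave 0 to 5 increased and 1 to 3 decreased regions, 0 to 2 promoters, medians of 0.27 to 0.40 at promoters and 0.11 to 0.18 elsewhere, and 0 to 3 increased and 0 to 1 decreased other clock genes. The causes were not tested.

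With the abundance correction the sign turned at the promoters of Clock (-0.10), Per1 (-0.14), Per2 (-0.049) and Cry2 (-0.17), at the Cry2 exons (-0.21), the Per2 exons (-0.21) and the upstream region of Nr1d1 (-0.073), and with total counts at these 3 regions (-0.053, -0.0023 and -0.0067). Per3, near 0, turned to 0.014 with DESeq2's test, 0.010 with its size factors, 0.015 with the GC correction and 0.047, 0.017 and 0.052 with aged 1 and 3, 1 and 4 and 3 and 4 summed. Leaving out 1 sample gave -0.21 to 0.077 at Per3, -0.039 to 0.12 at the Cry2 exons and -0.25 to 0.020 downstream of Per1. No other named region changed sign.

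With the replicate number as a block (replicates 1 to 3, so that aged 4 is left out too), 2 clock gene regions increased and 2 decreased, 1 other clock gene increased and the Per3 value was 0.036. The Per2 intron (adjusted p = 0.086) and the Cry1 intron (0.059) lost their calls and the strongest Arntl intron gained one (0.59, adjusted p = 0.012). Leaving out aged 4 without the block already lost the Per2 call (0.064), gained the Arntl one (0.041) and left 1 other clock gene, but kept Cry1 (0.036). The numbers do not pair the samples: the deviations of same-numbered samples correlated at -0.12, 0.056 and 0.030.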
